A study of Homo sapiens with 11 samples.

Results

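Extracellular signal-regulated kinase (ERK) is the last enzyme of the RAS, RAF and MEK cascade, and it switches on genes whose products hold the cascade back. The 10 genes described here are drawn from that feedback and from the transcriptional targets of ERK. They are the MAP kinase phosphatases DUSP4, DUSP5 and DUSP6, the Sprouty genes SPRY2 and SPRY4, the Sprouty-related genes SPRED1 and SPRED2, the ETS transcription factors ETV4 and ETV5, and PHLDA1. They were found by Entrez identifier in both count tables, where they are 10 of 28395 listed genes, and all of them passed the filter on low counts in each comparison. The set was chosen by the lower DUSP5 level of PC3 cells with ST6GAL1 overexpression, so the changes of its members in PC3 are given as a description, with no test.

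RNA was sequenced from PC3 and DU145, human prostate cancer cell lines, each transduced with a lentivirus carrying the sialyltransferase gene ST6GAL1 or with the Lenti-ORF control virus. Stable lines were compared, and whether they were clones or pools is not given in the sources used here. Effects of ST6GAL1 and other differences between the stable lines cannot be told apart. PC3 is represented by 3 control and 3 overexpression libraries, and DU145 by 3 control libraries and 2 overexpression libraries, which are numbered replicates 2 and 3. The labels call them biological replicates without saying what was repeated, so p-values measure only the spread between these libraries. Levels are CPM, which is counts scaled to a common library total, after TMM normalization over the 11 libraries. A gene counts as called where edgeR's quasi-likelihood test, adjusted by Benjamini-Hochberg over all genes, gave p under 0.05 and the log2 fold change exceeded 0.58 in size.

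ERK signalling starts at growth factor receptors, and its output is limited at several steps. The DUSP phosphatases remove phosphate from MAP kinases, Sprouty proteins act near the receptors, and SPRED proteins bring the RAS inactivator neurofibromin to the membrane. DUSP6, SPRY4 and ETV4 are often read as markers of how strongly the cascade is running, and such genes are used as signatures of ERK output in tumour cells.

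Total counts on genes were 13194485 to 18201359 per library, at which a floor of 3 counts is 0.165 to 0.227 CPM, for counting error only. ST6GAL1 was higher in every overexpression library than in any control library of its line, by 12-fold in PC3 and 25-fold in DU145. The epithelial markers KRT8, KRT18, EPCAM and CDH1 were read in every group, and their summed level was 511 to 531 CPM in PC3 control, 496 to 499 in PC3 overexpression, 1050 to 1090 in DU145 control and 881 to 957 in DU145 overexpression libraries. With ST6GAL1 overexpression CDH1 rose in PC3 (log2 fold change 1.37) and DU145 (0.26), KRT8 fell in both (-0.21 and -0.27), and KRT18 (-0.25) and EPCAM (-0.35) fell in DU145. Of 8 markers of leukocytes, endothelium and fibroblasts, CD3E was at 0 in all 11 libraries and the summed level was 35.4 to 37.3 CPM in PC3 control, 37.1 to 42.2 in PC3 overexpression, 5.15 to 7.85 in DU145 control and 3.87 to 7.87 in DU145 overexpression libraries. Of those 8, COL3A1 rose in PC3 (from 59 to 68 counts to 184 to 306), COL1A1 fell in PC3 (from 376 to 449 counts to 266 to 340) and PECAM1 rose in DU145 (from 3 to 7 counts to 12 and 26), and their part in the results was not tested.

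The bases upstream of 3 members are printed because their libraries did not overlap between DU145 control and overexpression and their start sites are listed in the RefSeq promoter table used (GRCh38.p14). The libraries of DUSP4 did not overlap in DU145 either, but DUSP4 was left out of the search of start sites. Each run is the 250 bases before a listed start site, 5′ to 3′ on the strand of the gene, and capitals mark GGAA, the core that ETS factors bind, or its complement TTCC. The DUSP6 window is chr12:89352502-89352751, the SPRY4 window is chr5:142324248-142324497 and the PHLDA1 window is chr12:76031777-76032026, all on the minus strand. The SPRY4 start site lies within the annotated span of the gene, which reaches 142325021.
DUSP6: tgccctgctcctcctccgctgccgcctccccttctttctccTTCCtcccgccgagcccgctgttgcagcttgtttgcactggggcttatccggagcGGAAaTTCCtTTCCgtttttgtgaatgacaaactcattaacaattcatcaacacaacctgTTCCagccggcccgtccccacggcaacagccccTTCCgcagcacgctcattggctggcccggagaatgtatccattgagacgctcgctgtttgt
SPRY4: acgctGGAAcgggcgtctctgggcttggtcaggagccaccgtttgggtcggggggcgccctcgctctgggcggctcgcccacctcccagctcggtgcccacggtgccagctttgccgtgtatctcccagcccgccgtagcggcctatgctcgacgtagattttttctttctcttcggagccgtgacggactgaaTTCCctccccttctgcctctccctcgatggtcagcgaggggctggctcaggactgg
PHLDA1: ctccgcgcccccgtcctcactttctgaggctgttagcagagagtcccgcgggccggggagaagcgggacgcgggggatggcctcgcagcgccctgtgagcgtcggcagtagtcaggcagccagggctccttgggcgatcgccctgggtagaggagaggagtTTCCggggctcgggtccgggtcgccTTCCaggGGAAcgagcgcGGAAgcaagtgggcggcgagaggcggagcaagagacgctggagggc

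GGAA was found on either strand 6 times in the DUSP6 window, 4 times in the PHLDA1 window and 2 times in the SPRY4 window. The median over 35116 windows of the same length was 3, with quartiles of 2 and 4, and 92.7% of windows held at least 1 match. The longer ETS core CCGGAA, which contains GGAA, was searched at 9 start sites of 6 members, with DUSP4 left out of the search. It was found at 2 of them, against 14.5% of all windows. The AP-1 site TGANTCA was found at 0 of the 9 start sites (6.57% of all windows) and the CRE site TGACGTCA at 0 (1.65% of all windows). The Sp1 box GGGCGG was found at 4 of the 9 (42.6% of all windows). These are letter matches only, and a window without them says nothing of a factor.

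The first comparison asked how far the 2 lines differ in these genes before ST6GAL1 is added. All 10 members were higher in PC3 control cells than in DU145 control cells, and no PC3 library overlapped a DU145 library for any of them. The libraries of the 2 lines likewise did not overlap for 12611 of all 14246 genes tested. The differences of the members ran from 1.75-fold for SPRED2 to 99.7-fold for SPRY4. Their median log2 difference was 2.28 against -0.0032 over all 14246 genes tested. All 10 were past the call thresholds as higher in PC3, DUSP5 as a description only, where 32.8% of all genes tested were called higher in PC3 and 64.6% were called in either direction. The PC3 and DU145 libraries came as separate count tables, and the line and the table cannot be told apart. RNA was read from whole cultures, so fewer cells with a transcript and less transcript per cell cannot be told apart.

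Among the phosphatases, DUSP4, which acts on nuclear MAP kinases, was at 641.7, 664.9 and 655.2 normalized CPM in the PC3 control libraries and at 15.2, 13.96 and 15.33 in the DU145 control libraries. This was a 44-fold difference (log2 5.46, standard error 0.0604, adjusted p = 1.63e-31, edgeR). DUSP6, the cytoplasmic ERK phosphatase, was at 131.7, 133.8 and 135.8 CPM in PC3 and at 6.806, 6.218 and 5.984 in DU145. The fold was 21 (log2 4.39, standard error 0.0722, adjusted p = 8.24e-28, edgeR). DUSP5, the nuclear ERK phosphatase, was at 157.2, 156.8 and 152.3 CPM against 32.64, 32.93 and 30.59, or 4.83-fold, and is given without a test because its PC3 control values took part in the choice.

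Both families of upstream inhibitors held 1 gene with a modest difference and 1 with a larger one. SPRY4 was at 255, 243.8 and 249.1 CPM in PC3 control libraries and at 2.577, 2.221 and 2.693 in DU145, where these stand for 39, 35 and 36 counts. Its log2 difference was 6.64 (standard error 0.0796, adjusted p = 8.91e-31, edgeR). SPRY2 was at 41.49, 44.08 and 38.93 CPM against 24.58, 20.05 and 16.98, a 2.01-fold difference (adjusted p = 4.02e-09, edgeR). SPRED1 was at 219.7 to 236.6 CPM against 44.22 to 47.31 (4.91-fold, adjusted p = 1.08e-24, edgeR), and SPRED2 at 90.59 to 94.89 against 48.41 to 57.37 (1.75-fold, adjusted p = 3.95e-13, edgeR).

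The related factors ETV4 and ETV5 differed unequally. ETV4 was at 238.2, 250.3 and 242.1 CPM in PC3 and at 11.89, 12.18 and 13.39 in DU145 control libraries, or 19.5-fold (log2 4.28, standard error 0.0622, adjusted p = 5.32e-29, edgeR). ETV5 was at 126.8 to 128.3 CPM against 54.18 to 58.42, or 2.26-fold (adjusted p = 3.39e-18, edgeR). PHLDA1, a pleckstrin homology-like protein whose gene is induced through the cascade, was at 394, 404 and 404.8 CPM against 152.2, 147.5 and 152.2, or 2.65-fold (adjusted p = 2.62e-21, edgeR).

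**Figure D1:**
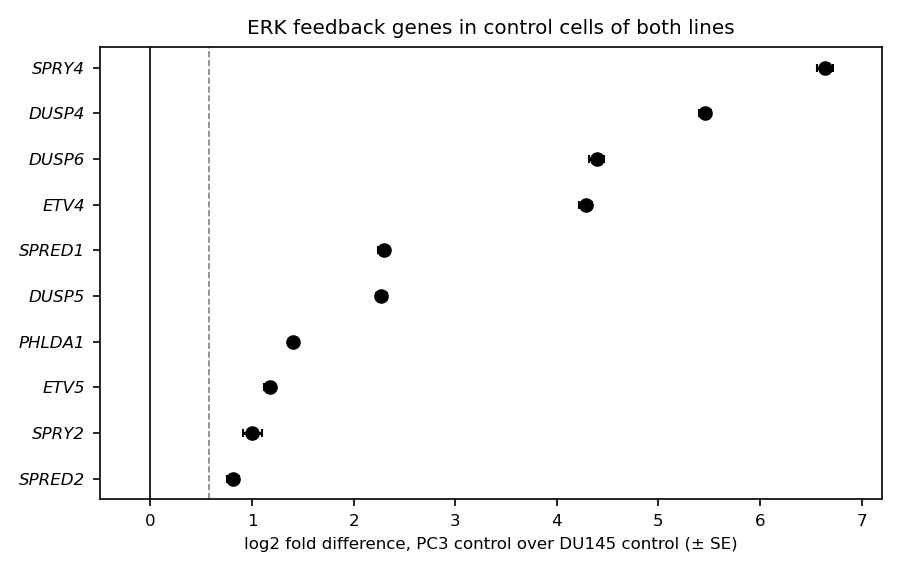
Log2 difference of each member between PC3 control and DU145 control cells (horizontal axis, PC3 over DU145, 3 libraries each), with bars of 1 standard error and a dashed line at 0.58. All 10 points lie right of the dashed line, from SPRED2 at 0.81 to SPRY4 at 6.64.

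Per kilobase of exon, the order of the members also differed between the lines. In PC3 control cells DUSP4 had the highest level at 89.9 normalized CPM per kilobase, followed by ETV4 at 69.3 and PHLDA1 at 67.8, whose libraries overlapped. Below them came DUSP5 at 61.3, SPRY4 at 38.0, DUSP6 at 34.7, SPRED1 at 29.3, ETV5 at 22.1, SPRED2 at 17.0 and SPRY2 at 12.9 CPM per kilobase. In DU145 control cells PHLDA1 was highest at 25.5 CPM per kilobase and SPRY4 lowest at 0.381. Between them stood DUSP5 at 12.6, ETV5 at 9.77 and SPRED2 at 9.66, SPRY2 at 6.39 and SPRED1 at 5.96, ETV4 at 3.55, DUSP4 at 2.04 and DUSP6 at 1.64 CPM per kilobase. The libraries of ETV5 and SPRED2 overlapped, as did those of SPRY2 and SPRED1.

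The second comparison set ST6GAL1 overexpression against control in DU145. The rule that chose the genes did not use this contrast, though they were chosen with earlier results of these data known. ETV4 and ETV5 fell, and both were called, so that 2 of the 10 members were called and both were lower. Over all 13676 genes tested, 8.94% were called and 4.61% were called lower. PHLDA1 also had an adjusted p under 0.05 but a smaller change, making 3 of 10 members at that threshold, against 20.1% of all genes. By sign, 8 members were lower and 2 higher, with a median log2 fold change of -0.208 against -0.00161 over all genes. The control and overexpression libraries did not overlap for 7 of the 10, where 48.4% of all genes tested did not overlap.

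ETV4 was at 11.89, 12.18 and 13.39 normalized CPM in the DU145 control libraries and at 4.771 and 6.308 in the overexpression libraries. Both overexpression libraries were under every control library, and the fitted level fell to 0.448 of the control level. The log2 fold change was -1.16 (standard error 0.158, adjusted p = 0.000147, edgeR), from 179 to 192 counts in control and 74 and 113 counts in overexpression libraries. ETV5 was at 56.63, 54.18 and 58.42 CPM in control and at 31.14 and 34.16 in overexpression libraries. The fitted level fell to 0.582 of the control level, again with no overlap (log2 fold change -0.78, standard error 0.0921, adjusted p = 4.2e-05, edgeR). The calls on ETV4 and ETV5 held under all 11 alternative fits, with log2 fold changes of -1.37 to -0.99 for ETV4 and -0.84 to -0.73 for ETV5.

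ETV4 shares 16954 bases of its span with DHX8, an RNA helicase gene on the other strand, and whether counting used strand is not given in the sources used here. DHX8 was at 137.2 to 143.4 normalized CPM in DU145 control and at 172.8 and 161.4 in overexpression libraries (log2 fold change 0.26, adjusted p = 0.0205, edgeR), so the 2 genes moved in opposite directions. In PC3, DHX8 was at 59.63 to 65.46 CPM in control and 60.01 to 60.93 in overexpression libraries. DHX8 was thus higher in DU145 than in PC3, while ETV4 was higher in PC3.

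Of the other targets, PHLDA1 was at 152.2, 147.5 and 152.2 normalized CPM in DU145 control and at 124.5 and 127.7 in overexpression libraries. This was a decrease of 16% with no overlap (log2 fold change -0.25, standard error 0.0718, adjusted p = 0.0243, edgeR). The adjusted p stayed under 0.05 in 8 of 11 alternative fits, and was 0.097, 0.0556 and 0.0621 without DU145 control replicate 1, 2 or 3.

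DUSP6 and SPRY4 were lower in both DU145 overexpression libraries than in any control library, but neither passed the test. DUSP6 was at 6.806, 6.218 and 5.984 normalized CPM in control and at 4.126 and 4.801 in overexpression libraries (log2 fold change -0.50, standard error 0.168, adjusted p = 0.0521, edgeR). SPRY4 was at 2.577, 2.221 and 2.693 CPM in control and at 1.418 and 1.563 in overexpression libraries, from 22 and 28 counts in the latter. Its log2 fold change was -0.73 (standard error 0.252, adjusted p = 0.0565, edgeR). Over the 11 alternatives the adjusted p ran from 0.0282 to 0.197 for DUSP6, called without DU145 overexpression replicate 3, and from 0.0453 to 0.25 for SPRY4, called with a minimum of 10 counts in every library.

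The other 5 members did not pass the test in DU145. DUSP5 was at 32.64, 32.93 and 30.59 normalized CPM in control and at 27.21 and 29.75 in overexpression libraries (log2 fold change -0.16, standard error 0.0989, adjusted p = 0.275, edgeR). DUSP4 was at 15.2, 13.96 and 15.33 CPM in control and at 15.73 and 18.14 in overexpression libraries (log2 fold change 0.20, standard error 0.123, adjusted p = 0.286, edgeR). Both genes had groups that did not overlap, DUSP5 lower and DUSP4 higher. SPRY2, SPRED1 and SPRED2 overlapped between the groups, with log2 fold changes of -0.02 (standard error 0.144), -0.004 (standard error 0.0872) and 0.10 (standard error 0.0938).

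**Figure D2:**
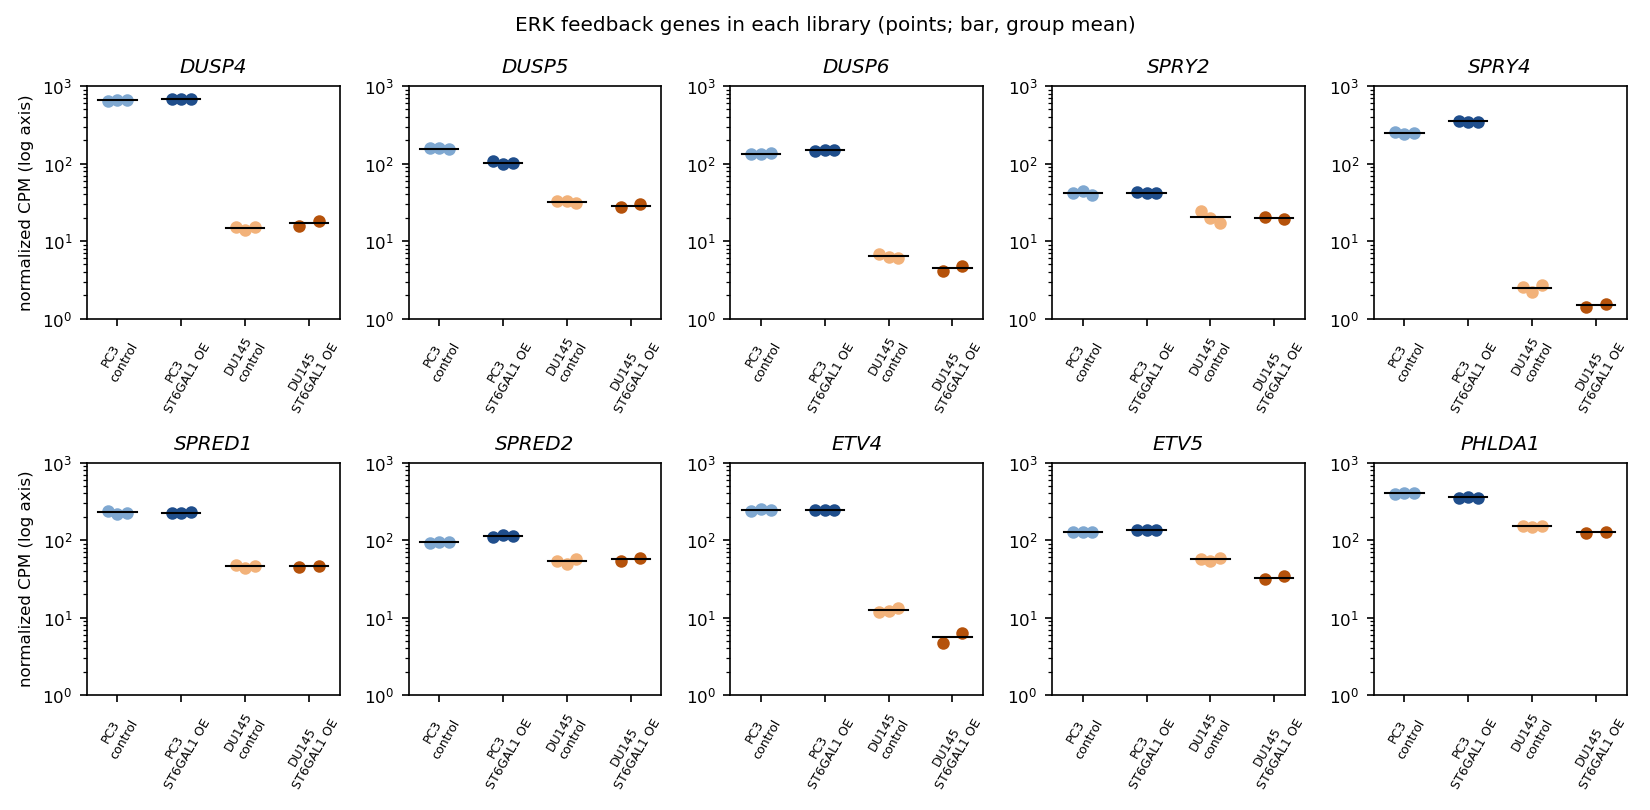
Normalized CPM of each member in each library (points, log axis) by group, with a bar at the group mean; the groups hold 3 libraries each except DU145 overexpression with 2. All 10 genes sit higher in PC3 than in DU145, and ETV4 and ETV5 step down in DU145 overexpression while their means in PC3 lie within 4.79% of the control mean.

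The third comparison, ST6GAL1 overexpression in PC3, is the one that led to the choice of the genes, and it is described without p-values. DUSP5 was at 157.2, 156.8 and 152.3 normalized CPM in the PC3 control libraries and at 107.4, 98.96 and 100.3 in the overexpression libraries. The level was 34.3% lower, or -0.61 on the log2 scale (standard error 0.0349). It was the 1 member of 10 past the call thresholds, where 5.38% of the 13544 genes tested were called. The next member by size, SPRY4 at 0.49, was short of the fold change threshold, which DUSP5 passed narrowly, with -0.64 to -0.58 when single libraries were left out.

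SPRY4 was at 255, 243.8 and 249.1 normalized CPM in PC3 control and at 356.1, 345.6 and 347.5 in overexpression libraries, 40.3% higher (log2 fold change 0.49, standard error 0.0275). SPRED2 was at 90.59, 94.55 and 94.89 CPM in control and at 111, 117.2 and 111.9 in overexpression libraries, 21.7% higher (log2 fold change 0.28, standard error 0.0364). DUSP6 was at 131.7, 133.8 and 135.8 CPM in control and at 147.2, 150.9 and 151.1 in overexpression libraries (log2 fold change 0.16, standard error 0.0323). All 3 inhibitors were thus read higher, and DUSP5 lower, in every overexpression library than in any control library.

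PHLDA1 was the other member with lower levels throughout in PC3, at 394, 404 and 404.8 normalized CPM in control and at 353.7, 357.1 and 351 in overexpression libraries (log2 fold change -0.18, standard error 0.0259). DUSP4, at 641.7 to 664.9 against 670 to 679.6 CPM, and ETV5, at 126.8 to 128.3 against 132.8 to 134.6 CPM, had log2 fold changes of 0.05 and 0.07. The libraries of SPRY2, SPRED1 and ETV4 overlapped, with log2 fold changes of 0.02, -0.01 and 0.01. The groups did not overlap for 7 of 10 members, where 46.1% of all genes tested did not overlap. By sign 7 were higher and 3 lower, with a median log2 fold change of 0.0311 against -0.00159 over all genes. By level per kilobase, SPRY4 stood above DUSP5 in PC3 overexpression cells (53.4 against 40.3 CPM per kilobase), the reverse of PC3 control cells (38.0 against 61.3).

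**Figure D3:**
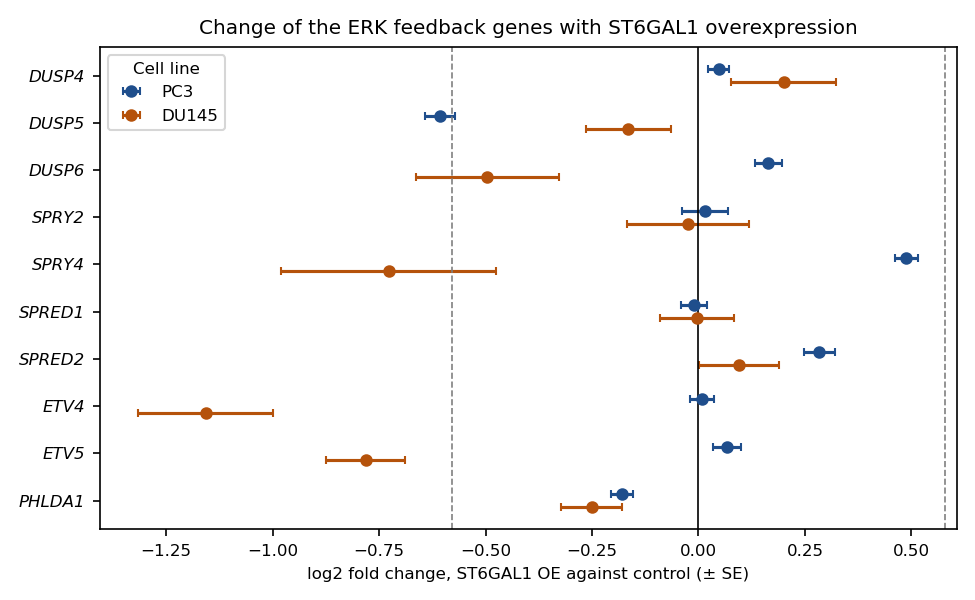
Log2 fold change of each member with ST6GAL1 overexpression (horizontal axis) in PC3 (blue) and DU145 (orange), with bars of 1 standard error and dashed lines at -0.58 and 0.58. ETV4, ETV5 and SPRY4 lie beyond the dashed line in DU145, of which SPRY4 did not pass the test, and DUSP5 lies beyond it in PC3.

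The changes in the 2 lines, which share no control libraries, are set side by side without a test of their difference, since the PC3 side chose the genes. The fold change was -0.61 in PC3 and -0.16 in DU145 for DUSP5, and 0.01 and -1.16 for ETV4, on the log2 scale. DUSP6 (0.16 in PC3, -0.50 in DU145), SPRY4 (0.49, -0.73) and ETV5 (0.07, -0.78) had opposite signs, with no overlap between groups in either line. PHLDA1 had the same sign in both, at -0.18 and -0.25. The spread between replicates was larger in DU145, with a biological coefficient of variation of 0.0817 against 0.0226 in PC3.

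The members lie on 9 chromosomes, and the change of each was read against the 25 tested genes on either side of it. ETV4 (chromosome 17, GRCh38 43527846 to 43546340) had a lower log2 fold change in DU145 than all 50 of its neighbours, whose median was 0.0417. ETV5 (chromosome 3, 186046314 to 186109089) lies 0.821 Mb from the ST6GAL1 gene, and 4 of its 50 neighbours changed further downwards, with a median of -0.0531. For SPRY4 this held for 2 neighbours and for DUSP6 for 4, around medians of 0.192 and 0.0379.

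DUSP4 stood in a different setting in DU145, where its segment was already known to be shifted from earlier results of these data. Overexpression libraries were lower for 49 of the 50 neighbours of DUSP4. Their median on the log2 scale was -0.354, and DUSP4 at 0.20 was above all 50. In PC3 the same surroundings had a median of 0.0309. DUSP5 in PC3 (chromosome 10, 110497907 to 110511533) had 5 of 50 neighbours with a lower log2 fold change, around a median of -0.0567.

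**Figure D4:**
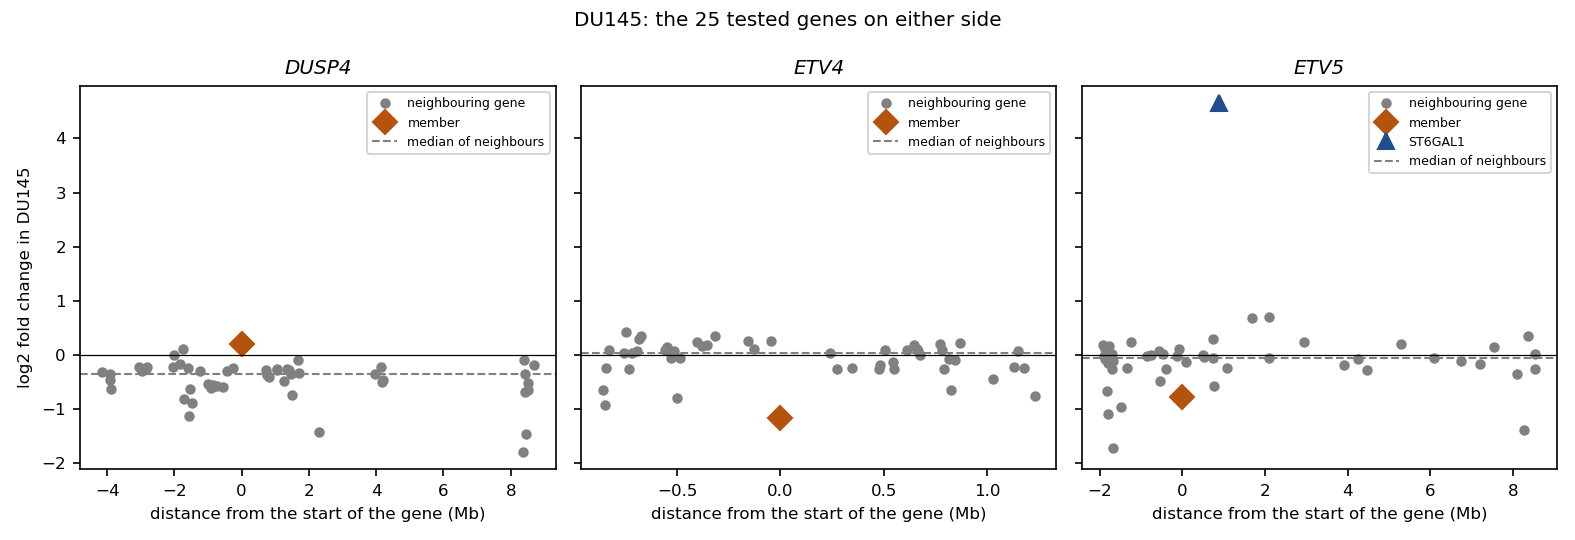
Log2 fold change in DU145 (vertical axis) of DUSP4, ETV4 and ETV5 (diamonds) and of the 25 tested genes on either side (grey points), against distance in Mb from the start of the member; the dashed line is the median of the neighbours and the triangle is ST6GAL1. DUSP4 at 0.20 lies above its neighbours, with a median of -0.354, and ETV4 at -1.16 lies below all of its neighbours.

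The genes whose pattern was most like that of DUSP5 were sought by the root mean square difference of log2 normalized CPM, centred within each line, over the 11 libraries and 12413 genes. The 5 nearest were CCN1 (0.0464), ZNF185 (0.0642), PLAU (0.0698), SOCS3 (0.0707) and RAP1GAP2 (0.0728), where the median gene was at 0.268. Their log2 fold changes in PC3 ran from -0.73 for PLAU to -0.53 for RAP1GAP2. The nearest member was PHLDA1 at 0.168, which ranked 472, and the farthest was SPRY4 at 0.447, which ranked 11343 of 12413. The PC3 change of DUSP5, which led to its choice, is part of this pattern, so the distances are a description only.

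Other genes of the pathway were read from 6 lists that hold 71 genes. The lists were chosen with earlier results of these data known, so their tests are not independent of those results. In DU145, 59 were tested and 10 were called, 3 higher and 7 lower (16.9%, against 8.94% of all genes). In PC3, 61 were tested and 4 were called, 2 higher and 2 lower (6.56%, against 5.38%). Of 16 tested genes of the cascade itself, from adaptors through RAS, RAF and MEK to ERK, 0 were called by edgeR, DESeq2 or limma-voom in either line, and 4 in DU145 and 9 in PC3 had an unadjusted p under 0.05. At an adjusted p under 0.05 alone, 2 of them were higher in DU145, and 3 were higher and 3 lower in PC3 (edgeR). Of all 13676 genes tested in DU145, 1459 were higher and 1288 lower at that threshold. Of all 13544 genes tested in PC3, 2548 were higher and 2508 lower. The share of all genes at an unadjusted p under 0.05 was not counted in either line.

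In DU145 the called genes beside the members were mostly targets and receptors. Of 12 tested ERK targets, 3 fell and 2 rose. The immediate-early transcription factors EGR1 (54.7 ± 8.39 normalized CPM, SD, n = 3, to 15.4 ± 0.635, SD, n = 2) and FOS fell, with log2 fold changes of -1.82 and -1.35 (adjusted p = 2.45e-06 and 0.0187, edgeR). The cell cycle gene CCND1 fell (log2 fold change -0.92, adjusted p = 7.69e-06, edgeR), while FOSL2, a FOS relative, rose (0.72, adjusted p = 2.27e-05, edgeR), and so did the ephrin receptor EPHA4 (0.65), which the rule for named genes did not take and DESeq2 did not call. Of 15 tested receptors and ligands 3 fell, namely the EGFR ligand AREG (log2 fold change -1.17, adjusted p = 8.81e-07, edgeR) and the FGF receptors FGFR4 (-0.98, adjusted p = 0.00244, edgeR) and FGFR1 (-0.64, adjusted p = 7.08e-05, edgeR). DUSP9, of 5 other phosphatases, fell (-1.03, adjusted p = 0.00115, edgeR), ETS1, of 5 other ETS factors, rose (0.60, adjusted p = 8.47e-05, edgeR), and 0 of 6 other feedback inhibitors were called by edgeR, DESeq2 or limma-voom, with 1 at an unadjusted p under 0.05. Without DU145 overexpression replicate 2, ETS1, FOS, FGFR1 and EPHA4 were not called, nor were ETS1 without control replicate 1 or EPHA4 without any 1 of the control libraries.

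In PC3 the feedback inhibitor ERRFI1, which restrains EGFR, fell from 248 ± 2.96 normalized CPM (SD, n = 3) to 157.8 ± 7.0 (SD, n = 3), or by -0.65 on the log2 scale (adjusted p = 1.23e-20, edgeR). It was the 1 called gene of 6 in its list. ETS2, of 6 other ETS factors, fell (log2 fold change -0.62, adjusted p = 3.93e-15, edgeR). FOS, of 13 tested targets, rose (log2 fold change 1.35, adjusted p = 0.000927, edgeR) from 4 to 15 counts in control to 18 to 37 in overexpression libraries, and the EGFR ligand EPGN, of 14 tested receptors and ligands, rose (0.84, adjusted p = 0.00353, edgeR) from 20 to 25 to 35 to 46 counts. Of 6 other phosphatases 0 were called by edgeR, DESeq2 or limma-voom, 4 had an unadjusted p under 0.05, and 3 were lower at an adjusted p under 0.05 (edgeR). Of all 13544 genes tested in PC3, 2508 were lower at that adjusted threshold.

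**Figure D5:**
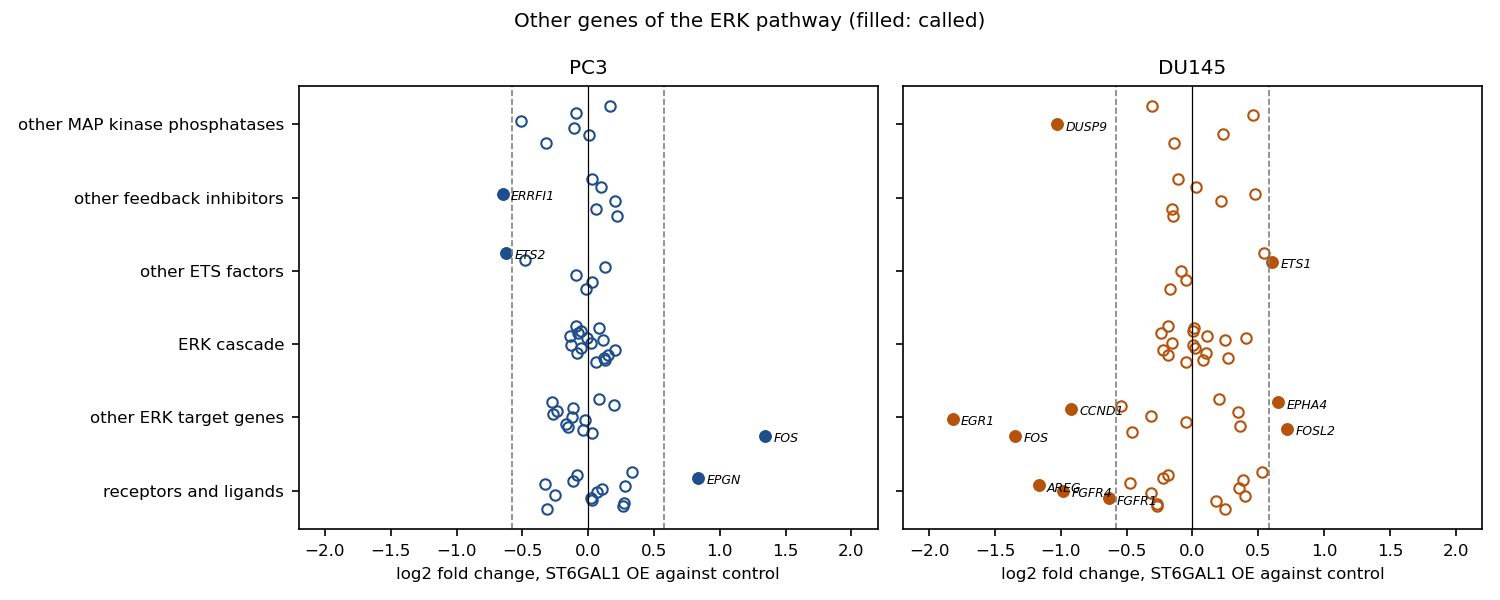
Log2 fold change with ST6GAL1 overexpression (horizontal axis) of the tested genes of 6 further ERK pathway lists in PC3 (left) and DU145 (right), with dashed lines at -0.58 and 0.58 and called genes filled. The 16 genes of the cascade have no filled point, while 5 targets are filled in DU145 and 1 in PC3.

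Between the control cells of the 2 lines, the same lists differed in both directions where the members did not. Of 64 tested pathway genes 25 were called higher in PC3 and 25 lower (78.1%, against 64.6% of all genes). Of 14 tested targets 10 were called higher in PC3 and 3 lower, and of 16 cascade genes 1 was called higher and 9 lower. The genes named here were chosen after their values were seen. FOSL1, at 825.9 ± 34.6 normalized CPM in PC3 and 44.2 ± 2.93 in DU145 (SD, n = 3 each), was on the side of the members. EGR1, at 0.0584 ± 0.0562 CPM in PC3 (under the floor of 3 counts in each control library) and 54.7 ± 8.39 in DU145, was on the other side.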

How the data were processed

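RNA-Seq libraries were prepared with a stranded mRNA kit. The authors worked in Galaxy, trimming with Cutadapt, aligning to hg38 by HISAT2 and assigning reads to genes by featureCounts. The values deposited by the authors are raw counts per Entrez gene, without normalization. The annotation and strand setting used for counting are not given in the sources used here.

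The members, lists and tests were chosen with earlier results of these data known. From the counts, PC3 and DU145 were each fitted alone with edgeR 4.0.16 (R 4.3.3): filterByExpr, TMM factors and the robust quasi-likelihood test, with Benjamini-Hochberg adjustment over all genes tested. PC3 control and DU145 control libraries were compared in the same way. Symbols matched 97.7% of identifiers. Levels per kilobase used the union of exons in GENCODE release 44. The rule for named genes took all members, ST6GAL1, at most 4 called genes of each list and line with the largest change, the 5 genes nearest DUSP5, overlapping genes and markers. Exceptions are marked where they occur, and some listed genes are not reported here. Alternatives were DESeq2 1.42.0, limma-voom (limma 3.58.1, the tool of the study), RLE factors, other filters, a replicate block, adjusted p alone and leaving out each library. The fits were tested on simulated data with a single spread for all genes, which was smaller than the spread in DU145. No pair of replicates agreed within sampling noise (chi-square per degree of freedom 1.39 to 13.3, the highest for the DU145 overexpression pair).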

Additional observations from a re-analysis of the deposited data

Results flagged for a closer look

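Log2 fold changes had opposite signs in the 2 lines, with groups that did not overlap in either line, for 3 of 10 members, for 18 of 56 other pathway genes tested in both lines and for 9.37% of all 12413 genes tested in both. Of the other pathway genes, only those called in at least 1 line are named below. The difference between the lines was not tested, and in DU145 the overexpression group holds 2 libraries. Among the members these were DUSP6 (-0.50 in DU145, 0.16 in PC3), SPRY4 (-0.73 in DU145, 0.49 in PC3) and ETV5 (-0.78 in DU145, 0.07 in PC3). Of the called pathway genes, FOS (-1.35 in DU145, 1.35 in PC3) and AREG (-1.17 in DU145, 0.11 in PC3) were lower in DU145 and higher in PC3. ETS1 (0.60 in DU145, -0.48 in PC3), ETS2 (0.54 in DU145, -0.62 in PC3), FOSL2 (0.72 in DU145, -0.15 in PC3) and ERRFI1 (0.48 in DU145, -0.65 in PC3) were higher in DU145 and lower in PC3. Groups of at most 3 libraries allowed no search for single outlying libraries.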

How the results depend on the processing

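The calls on ETV4 and ETV5 in DU145 and on the members other than DUSP5 between the lines held under every alternative run. Without the fold change threshold 2747 of 13676 genes, 3 of 10 members and 21 of 59 other pathway genes passed in DU145. In PC3 5056 of 13544 genes and 33 of 61 other pathway genes passed. There 5 of 10 members, DUSP5 among them, were past this threshold. That count is a description only and no test of the members, because the PC3 contrast led to their choice. By the longest transcript, 2 members changed rank per kilobase in DU145 control cells, DUSP5 and ETV5. Leaving out 1 library gave 830 to 2072 called genes in DU145 (2072 without overexpression replicate 3), 6 to 14 other pathway genes there (6 without overexpression replicate 2) and 670 to 798 genes in PC3; leaving out a DU145 overexpression library leaves 1, assumed to vary like the controls. Replicate numbers are shared between the groups. The deviations of same-numbered libraries correlated at -0.00199, 0.0752 and 0.0606 in PC3 and 0.0864 and 0.292 in DU145. Those of differently numbered libraries correlated at -0.082 to 0.0213 in PC3 and at -0.0864 and -0.292 in DU145. In DU145 the signs mirror each other because the overexpression group holds 2 libraries. The numbers were not taken as pairs in the main fits. With the replicate number as a block 1517 genes were called in DU145 and 740 in PC3. Of the members 2 were called in DU145, and 1 was past the call thresholds in PC3, as a description only. SPRY2 (0.13) and SPRED1 (0.014) changed sign in DU145 with this block. Signs also changed among small values when 1 library was left out, for SPRY2 in DU145 (-0.16 to 0.11) and for SPRY2 (-0.026 to 0.060), SPRED1 (-0.034 to 0.019) and ETV4 (-0.0099 to 0.029) in PC3. The cause was not tested. In DU145 the overexpression group holds 2 libraries, and SPRY4 was read at 22 to 39 counts per library.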
